A study of Mus musculus with 12 samples.

Results

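The Hox genes of the mouse were examined as a set in 3 mesenchymal breast cancer cell lines treated with an siRNA against Nrf2. The members were chosen by name alone: the 39 genes with the symbol Hoxa, Hoxb, Hoxc or Hoxd and a number, of 24454 genes in the deposited table. The MT∆Ecad line came from a mammary tumour of the MMTV-Neu strain, and the Py2T LT and PyMT-1099 LT lines came from mammary tumours of the MMTV-PyMT strain. The name MT∆Ecad marks a deletion of E-cadherin (Cdh1), which the names of the other lines do not carry. In these strains a mammary tumour virus promoter drives the oncogene (Neu, or the polyoma middle T antigen) in the mammary epithelium. Transfection lasted 48 hours, with Dharmacon siRNA that was either Nrf2-targeting (siNrf2) or non-targeting (siCtl). Each of the 6 groups of line and siRNA had 2 libraries, which the series text calls biological duplicates, so 12 libraries of ribosome-depleted total RNA were compared. All groups are cultured cells, and each line is a single line, so a difference between lines cannot be told apart from a difference between strains or tumours, or, for MT∆Ecad, from the E-cadherin deletion.

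Hox genes encode homeodomain transcription factors that give cells their position along the head to tail axis of the embryo. They lie in clusters, and genes at the 3′ end of a cluster (low paralogue numbers) act in anterior regions while genes at the 5′ end (high numbers) act in posterior ones. Adult cells, including fibroblasts and the mammary gland, keep a pattern of expressed Hox genes that marks where in the body they come from, and chromatin proteins of the Polycomb and trithorax groups maintain it.

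Nfe2l2, which encodes Nrf2, was the target of the siRNA and checks the labels. It had 50.8 and 53.98 reads per 1000000 (CPM) in siNrf2 and 208 and 209 CPM in siCtl libraries of MT∆Ecad. It had 21.9 and 24.5 CPM in siNrf2 and 89.7 and 83.6 CPM in siCtl libraries of Py2T LT. In PyMT-1099 LT it had 25.8 and 33.3 CPM in siNrf2 and 113 and 113 CPM in siCtl libraries, so every library labelled siNrf2 was below every siCtl library of its line. Library totals ran from 27088970 to 37070635 reads, so 3 reads in a library, the limit that a count of 0 allows, correspond to 0.0809 to 0.111 CPM (counting error only). Vim, Fn1 and other genes of a list of 13 mesenchymal genes were present in every line: 13 of 13 reached 1 CPM in every library of MT∆Ecad and of Py2T LT, and 9 of 13 did in PyMT-1099 LT. Prrx1, Snai2, Twist1 and Twist2 were the 4 without a read in PyMT-1099 LT, while all 4 had reads in the other lines. The gene deleted in MT∆Ecad, Cdh1, ran from 0.315 to 0.639 CPM in MT∆Ecad, from 12.5 to 18.1 CPM in Py2T LT and from 47.8 to 62.1 CPM in PyMT-1099 LT. Of 13 epithelial genes 12 were tested. In siCtl libraries 2 were higher and 7 lower in MT∆Ecad than in PyMT-1099 LT, where 27% of all tested genes were called higher and 30.6% lower. In MT∆Ecad 1 was higher and 10 lower than in Py2T LT (25.9% and 28.6% of all tested genes). In Py2T LT 7 were higher and 4 lower than in PyMT-1099 LT (28.1% and 27.5%).

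Here a Hox gene is called detected in a line when it had at least 1 CPM in all 4 libraries of that line. By that rule 14 of the 39 genes were detected in at least 1 line: 7 of 11 Hoxa genes, 7 of 10 Hoxb genes, 0 of 9 Hoxc genes and 0 of 9 Hoxd genes. Hoxa genes had 8468 reads over the 12 libraries, Hoxb genes 7707, Hoxc genes 13 and Hoxd genes 0, of 385403948 reads in all. All 9 members of the Hoxd cluster, Hoxd1, Hoxd3, Hoxd4, Hoxd8, Hoxd9, Hoxd10, Hoxd11, Hoxd12 and Hoxd13, had no read in any library. Of the Hoxc genes, 7 (Hoxc4, Hoxc5, Hoxc8, Hoxc9, Hoxc10, Hoxc11 and Hoxc12) had no read either, nor had Hoxa11, Hoxa13 and Hoxb1, which makes 19 genes without a read. Another 6 genes had reads but were not detected in any line: Hoxa2, Hoxa9, Hoxb5, Hoxb7, Hoxc6 and Hoxc13. Of these, Hoxb7 reached 0.0281 CPM, Hoxc13 0.0872 CPM and Hoxc6 0.111 CPM at most in a library.

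Hoxb3 and Hoxb4 were detected in all lines. Hoxa3 and Hoxb2 were detected in both MT∆Ecad and Py2T LT. Hoxa4, Hoxa5, Hoxa6 and Hoxa7 were detected in MT∆Ecad alone, and Hoxa10, Hoxb6, Hoxb8, Hoxb9 and Hoxb13 in PyMT-1099 LT alone. MT∆Ecad thus detected 9 of 39, Py2T LT 5 and PyMT-1099 LT 8. With a limit of 0.2 CPM or of 10 reads in every library, Hoxa4 and Hoxa5 also counted as detected in Py2T LT. So did Hoxa2 in MT∆Ecad, and Hoxa9 and Hoxb5 in PyMT-1099 LT. In bulk cells, fewer cells expressing a gene and less RNA per cell cannot be told apart.

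**Figure D1:**
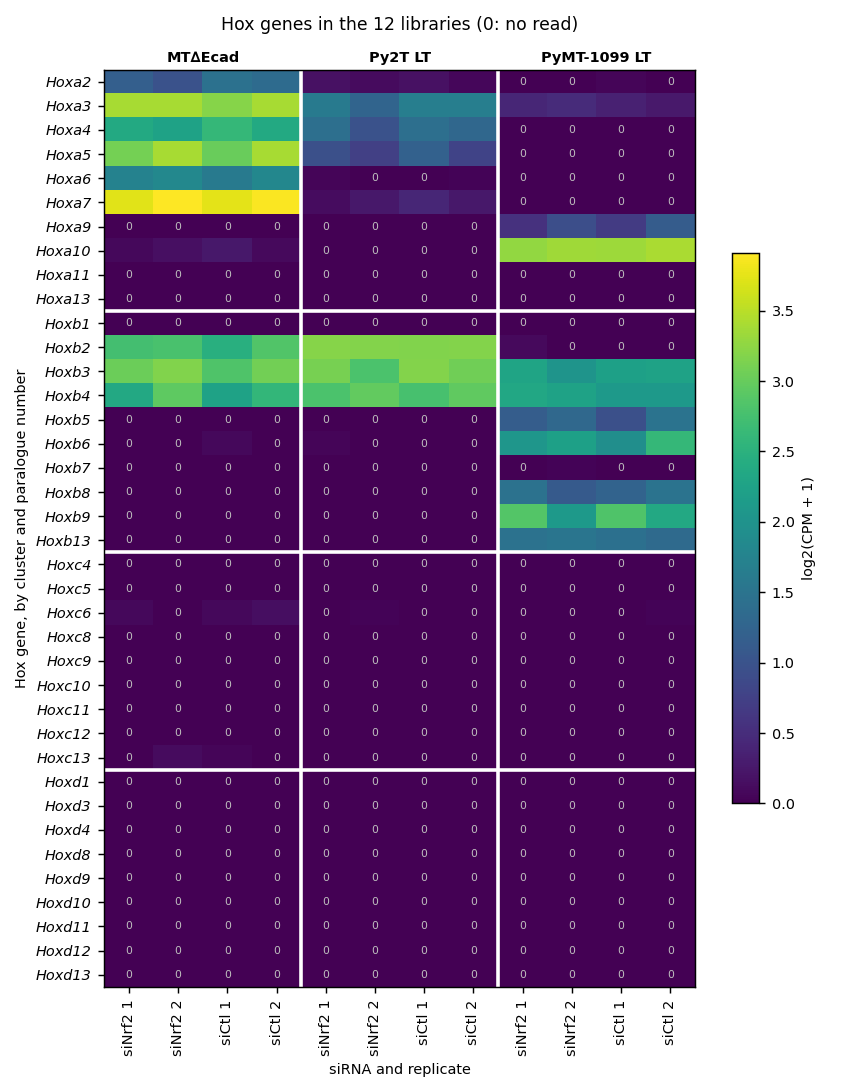
Level of the Hox genes reported (rows, by cluster and paralogue number) in the 12 libraries (columns, grouped by line), as log2(CPM + 1); a 0 marks a gene without a read. Hoxa3 to Hoxa7 are bright in the 4 MT∆Ecad libraries, Hoxa10 and Hoxb5 to Hoxb13 other than Hoxb7 have signal in the 4 PyMT-1099 LT libraries, and the Hoxc and Hoxd rows are dark in all 12.

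The promoters of 4 genes are shown because they stand on either side of the change between lines: Hoxa7 and Hoxb4 were the most 5′ genes detected in MT∆Ecad in their clusters, and Hoxa10 and Hoxb8 were detected in PyMT-1099 LT alone. The Hoxa cluster spans chr6:52155590-52260880 on the minus strand and the Hoxb cluster chr11:96194316-96368256 on the plus strand (GRCm38, also called mm10). The silent clusters are Hoxc at chr15:102921103-103036852 and Hoxd at chr2:74668310-74765142, both on the plus strand. Of the 39 genes, 22 have an entry in the RefSeq promoter table (GRCm38.p6), which gives 300 bases, 250 before to 50 after each start. The Entrez identifiers are 15404 for Hoxa7, 15395 for Hoxa10, 15412 for Hoxb4 and 15416 for Hoxb8. The 4 promoters follow, in lower case with CpG dinucleotides in capitals, for Hoxa7 (chr6:52218524-52218823, minus strand), Hoxa10 (chr6:52240805-52241104, minus strand), Hoxb4 (chr11:96318017-96318316, plus strand) and Hoxb8 (chr11:96281655-96281954, plus strand).
Hoxa7: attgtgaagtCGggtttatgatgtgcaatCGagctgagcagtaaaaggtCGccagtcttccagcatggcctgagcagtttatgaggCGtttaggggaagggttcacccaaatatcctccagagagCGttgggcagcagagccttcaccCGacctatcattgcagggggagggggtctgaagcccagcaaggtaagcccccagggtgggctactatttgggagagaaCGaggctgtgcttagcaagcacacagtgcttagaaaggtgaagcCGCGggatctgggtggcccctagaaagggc
Hoxa10: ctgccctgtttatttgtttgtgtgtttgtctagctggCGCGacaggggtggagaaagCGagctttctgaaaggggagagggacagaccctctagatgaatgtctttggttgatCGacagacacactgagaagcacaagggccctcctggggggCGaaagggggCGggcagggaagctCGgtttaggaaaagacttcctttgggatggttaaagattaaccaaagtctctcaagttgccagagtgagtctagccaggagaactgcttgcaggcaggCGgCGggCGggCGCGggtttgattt
Hoxb4: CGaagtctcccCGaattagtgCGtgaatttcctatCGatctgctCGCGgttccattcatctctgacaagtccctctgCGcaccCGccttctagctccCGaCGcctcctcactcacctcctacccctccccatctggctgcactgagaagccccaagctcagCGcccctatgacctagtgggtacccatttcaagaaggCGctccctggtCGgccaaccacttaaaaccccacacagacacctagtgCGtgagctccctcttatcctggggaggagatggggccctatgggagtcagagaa
Hoxb8: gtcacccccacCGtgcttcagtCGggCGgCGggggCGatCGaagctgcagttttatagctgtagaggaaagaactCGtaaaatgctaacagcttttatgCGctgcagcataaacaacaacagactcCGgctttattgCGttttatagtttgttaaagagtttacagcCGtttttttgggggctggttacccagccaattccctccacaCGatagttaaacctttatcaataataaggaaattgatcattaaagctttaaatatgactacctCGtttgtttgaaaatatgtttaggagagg
The CpG counts of these sequences were 9 for Hoxa7, 12 for Hoxa10, 14 for Hoxb4 and 13 for Hoxb8, against a median of 7 over 32851 promoters of the same length and 14.5 over the 24 Hox promoters in the table. Hoxa10 has another promoter there (chr6:52234890-52235189, minus strand), with a CpG count of 21, which is not shown. Which of them PyMT-1099 LT used was not tested. On either strand, the core of the site that Nrf2 binds (TGACNNNGC) occurred in the promoters of Hoxa6 and Hoxd10 and in 12.4% of all promoters. A Pbx and Hox site (TGATTNAT) occurred in the promoters of Hoxa2 and Hoxd11 and in 3.22% of all, and a Cdx site (TTTATGG) in that of Hoxd4 and in 2.75% of all. A match describes these letters only.

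In MT∆Ecad every Hoxa gene from Hoxa2 to Hoxa7 had reads in all 4 libraries, and all of these but Hoxa2 were detected. Hoxa7, a homeodomain factor of the trunk, had 12.3 and 14.0 CPM in siNrf2 libraries and 12.5 and 13.8 CPM in siCtl libraries of MT∆Ecad. In Py2T LT it had 0.0969 and 0.195 CPM in siNrf2 libraries and 0.337 and 0.189 CPM in siCtl libraries, and in PyMT-1099 LT it had no read. The MT∆Ecad libraries did not overlap those of the other lines. In siCtl libraries its mean CPM in MT∆Ecad was 49.9-fold higher than in Py2T LT and at least 122-fold higher than in PyMT-1099 LT, taking 3 reads per library as the floor. The log2 difference of CPM plus 1 was 3.49 ± 0.10 (SE), adjusted p = 3.4e-09 against Py2T LT and 3.82 ± 0.10 (SE), adjusted p = 1.1e-09 against PyMT-1099 LT (limma, Benjamini-Hochberg over 12502 tested genes). The test kept genes with at least 1 CPM in at least 2 libraries. Hoxa7 passed that filter through MT∆Ecad alone, so it had to differ and these p-values are no support on their own. 23.3% of the exonic bases of Hoxa7 overlap the antisense transcript Hoxaas3, which ran at 0.0631 to 0.116 CPM in MT∆Ecad.

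Hoxa5, which is needed for lung and mammary gland development in mice, had 7.54 and 9.53 CPM in siNrf2 libraries and 7.06 and 9.49 CPM in siCtl libraries of MT∆Ecad. In Py2T LT it had 0.937 and 0.670 CPM in siNrf2 libraries and 1.32 and 0.728 CPM in siCtl libraries, and it had no read in PyMT-1099 LT. MT∆Ecad stood above Py2T LT and Py2T LT above PyMT-1099 LT, with no overlap between the lines. The difference was 2.20 ± 0.18 (SE), adjusted p = 4.2e-06 for MT∆Ecad minus Py2T LT in siCtl libraries. For MT∆Ecad minus PyMT-1099 LT it was 3.20 ± 0.18 (SE), adjusted p = 1.9e-07, and the level in MT∆Ecad was at least 76.9-fold higher.

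Hoxa4, a factor of the cervical and thoracic axis, had 4.16 and 3.75 CPM in siNrf2 libraries and 5.05 and 4.17 CPM in siCtl libraries of MT∆Ecad. It had 1.68 and 0.977 CPM in siNrf2 libraries and 1.69 and 1.48 CPM in siCtl libraries of Py2T LT and no read in PyMT-1099 LT. Its levels stepped down over the 3 lines with no overlap, and Py2T LT lacked the call of detection through 1 library at 0.977 CPM. In siCtl libraries the difference was 1.12 ± 0.14 (SE), adjusted p = 1.2e-04 for MT∆Ecad minus Py2T LT and 1.37 ± 0.14 (SE), adjusted p = 2.6e-05 for Py2T LT minus PyMT-1099 LT. Hoxa6, in the middle of the cluster, had 2.33 and 2.56 CPM in siNrf2 libraries and 2.01 and 2.51 CPM in siCtl libraries of MT∆Ecad. In Py2T LT it had 2 reads in 4 libraries and in PyMT-1099 LT none, so all MT∆Ecad libraries were higher. Its difference in siCtl libraries was 1.70 ± 0.087 (SE), adjusted p = 1.2e-07 for MT∆Ecad minus PyMT-1099 LT, and its level there was at least 20.99-fold higher by the floor.

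Hoxa3, which patterns the pharyngeal arches that form thymus and parathyroid, had 9.52 and 9.56 CPM in siNrf2 libraries and 8.23 and 9.56 CPM in siCtl libraries of MT∆Ecad. It had 2.07 and 1.40 CPM in siNrf2 libraries and 2.19 and 2.19 CPM in siCtl libraries of Py2T LT. In PyMT-1099 LT it had 0.342 and 0.393 CPM in siNrf2 libraries and 0.287 and 0.20 CPM in siCtl libraries. The 3 lines did not overlap: MT∆Ecad was highest and PyMT-1099 LT lowest. In siCtl libraries the difference was 1.63 ± 0.13 (SE), adjusted p = 3.2e-06 for MT∆Ecad minus Py2T LT, and 1.36 ± 0.13 (SE), adjusted p = 1.1e-05 for Py2T LT minus PyMT-1099 LT. Hoxa2, which patterns the second pharyngeal arch, had 1.26 and 0.988 CPM in siNrf2 libraries and 1.75 and 1.59 CPM in siCtl libraries of MT∆Ecad, at most 0.135 CPM in Py2T LT and 1 read in PyMT-1099 LT. All 4 MT∆Ecad libraries were above all others. The siCtl difference was 1.29 ± 0.086 (SE), adjusted p = 1.1e-06 for MT∆Ecad minus Py2T LT and 1.39 ± 0.086 (SE), adjusted p = 4.8e-07 for MT∆Ecad minus PyMT-1099 LT.

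The PyMT-1099 LT line detected Hoxa10 and no gene from Hoxa2 to Hoxa9. Hoxa10, a factor of the lumbar axis and of the uterus, had 6 to 8 reads per siRNA in MT∆Ecad (0.0631 and 0.116 CPM in siNrf2 libraries and 0.194 and 0.0738 CPM in siCtl libraries) and no read in Py2T LT. It had 8.71 and 9.26 CPM in siNrf2 libraries and 9.15 and 9.60 CPM in siCtl libraries of PyMT-1099 LT, above every library of the other lines. The siCtl difference was -3.20 ± 0.085 (SE), adjusted p = 9.8e-10 for MT∆Ecad minus PyMT-1099 LT and -3.37 ± 0.085 (SE), adjusted p = 8.5e-10 for Py2T LT minus PyMT-1099 LT. By reads, Hoxa10 was 69.9-fold lower in MT∆Ecad than in PyMT-1099 LT (95% counting interval 34.3 to 159), and at least 92.6-fold lower in Py2T LT. Hoxa9, next to Hoxa10 and known for its role in leukaemia, had no read in MT∆Ecad or Py2T LT and 0.478 and 0.926 CPM in siNrf2 libraries and 0.610 and 1.20 CPM in siCtl libraries of PyMT-1099 LT. It did not pass the filter on low values, which kept genes with at least 1 CPM in at least 2 libraries, and was not tested there. In the 3 settings that kept Hoxa9 (no filter, 0.2 CPM, or edgeR with filterByExpr) it was called lower in MT∆Ecad and in Py2T LT than in PyMT-1099 LT (adjusted p from 5.3e-04 to 0.00195 and from 5.6e-04 to 0.00160). The annotated ends of Hoxa7 and Hoxa9 are 1245 bases apart, and every gene from Hoxa4 to Hoxa7 was without a read in PyMT-1099 LT.

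In the Hoxb cluster, MT∆Ecad and Py2T LT resembled each other: both detected Hoxb2, Hoxb3 and Hoxb4 and no other Hoxb gene. Hoxb2, a hindbrain factor, had 5.71 and 5.90 CPM in siNrf2 libraries and 4.54 and 6.24 CPM in siCtl libraries of MT∆Ecad. It had 8.23 and 8.09 CPM in siNrf2 libraries and 8.03 and 8.09 CPM in siCtl libraries of Py2T LT, and 2 reads in 1 library of PyMT-1099 LT. Every MT∆Ecad library was below every Py2T LT library, and every Py2T LT library was above PyMT-1099 LT. The siCtl difference was 3.18 ± 0.12 (SE), adjusted p = 1.7e-08 for Py2T LT minus PyMT-1099 LT, and the level was at least 74.9-fold higher by the floor. For MT∆Ecad minus Py2T LT it was -0.52 ± 0.12 (SE), adjusted p = 0.00567, and edgeR did not call it (adjusted p from 0.0669 to 0.0747 over 3 settings).

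Hoxb3, which acts in the hindbrain and pharyngeal arches, had 7.16 and 7.96 CPM in siNrf2 libraries and 6.12 and 7.46 CPM in siCtl libraries of MT∆Ecad. It had 7.59 and 5.97 CPM in siNrf2 libraries and 8.13 and 7.36 CPM in siCtl libraries of Py2T LT and 3.89 and 3.06 CPM in siNrf2 libraries and 3.66 and 3.77 CPM in siCtl libraries of PyMT-1099 LT. MT∆Ecad and Py2T LT overlapped, and both lay above PyMT-1099 LT. The siCtl difference was 0.72 ± 0.15 (SE), adjusted p = 0.00217 for MT∆Ecad minus PyMT-1099 LT and 0.89 ± 0.15 (SE), adjusted p = 6.1e-04 for Py2T LT minus PyMT-1099 LT. 58.5% of the exonic bases of Hoxb2 and 63.9% of those of Hoxb3 overlap the antisense gene Hoxb3os, which was not matched to the table. The sources used here do not say whether counting used the strand, so the reads of such pairs cannot be told apart. Hoxb4, which acts in haematopoietic stem cells among others, had 4.13 and 6.65 CPM in siNrf2 libraries and 3.79 and 4.98 CPM in siCtl libraries of MT∆Ecad, 5.97 and 6.87 CPM in siNrf2 libraries and 5.80 and 6.74 CPM in siCtl libraries of Py2T LT, and 4.06 and 3.79 CPM in siNrf2 libraries and 3.27 and 3.29 CPM in siCtl libraries of PyMT-1099 LT. Its ranges in MT∆Ecad and both other lines overlapped, and only Py2T LT minus PyMT-1099 LT passed the test (0.76 ± 0.19 (SE), adjusted p = 0.00643). The call for Hoxb4 in MT∆Ecad minus Py2T LT depended on the setting: it was made in 4 of 23 settings, which include a fit over both siRNAs (adjusted p = 0.0439) and the fits without MT∆Ecad siNrf2 replicate 1 (0.0262) or replicate 2 (0.0260). For MT∆Ecad minus PyMT-1099 LT it was made over both siRNAs (0.0456). For MT∆Ecad minus Py2T LT, which passed for neither in siCtl libraries, the 95% interval was -0.50 to 0.16 for Hoxb3 and -0.86 to -0.02 for Hoxb4.

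Of the Hoxb genes from Hoxb5 to Hoxb13, 4 were detected in PyMT-1099 LT, and the other lines had 3 reads in all, those of Hoxb6. Hoxb6 and Hoxb9 are factors of the thoracic axis and its ribs. Hoxb6 had 2 reads in 1 library of MT∆Ecad, 1 read in 1 library of Py2T LT and 3.14 and 3.65 CPM in siNrf2 libraries and 2.83 and 5.06 CPM in siCtl libraries of PyMT-1099 LT. Hoxb9 had no read in MT∆Ecad or Py2T LT and 6.25 and 3.34 CPM in siNrf2 libraries and 6.14 and 4.11 CPM in siCtl libraries of PyMT-1099 LT. For Hoxb9 both libraries numbered 1 were above both numbered 2. Hoxb8, known for its role in myeloid progenitors, had 1.78 and 1.15 CPM in siNrf2 libraries and 1.36 and 1.80 CPM in siCtl libraries of PyMT-1099 LT and no read in the other lines. Hoxb13, the most posterior gene of the cluster and best known from the prostate, had 1.78 and 1.88 CPM in siNrf2 libraries and 1.72 and 1.54 CPM in siCtl libraries of PyMT-1099 LT and no read in the other lines. Each of the 4 genes was above the other lines in all 4 PyMT-1099 LT libraries.

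The floor gave lower bounds for these genes in siCtl libraries of MT∆Ecad against PyMT-1099 LT: Hoxb9 was at least 46.3-fold lower, Hoxb13 at least 14.7-fold lower, Hoxb8 at least 14.3-fold lower and Hoxb5 at least 12.3-fold lower. Hoxb6, with 2 reads in MT∆Ecad, was 122-fold lower, with a counting interval of 32.3 to 979. Hoxb5, which had 1.23 and 1.49 CPM in siNrf2 libraries and 0.933 and 1.80 CPM in siCtl libraries of PyMT-1099 LT, missed detection through 1 library at 0.933 CPM. On log2(CPM + 1), the siCtl difference of MT∆Ecad minus PyMT-1099 LT was -2.22 ± 0.17 (SE), adjusted p = 3.0e-06 for Hoxb6 and -2.60 ± 0.22 (SE), adjusted p = 5.1e-06 for Hoxb9. It was -1.36 ± 0.12 (SE), adjusted p = 8.1e-06 for Hoxb8, -1.40 ± 0.069 (SE), adjusted p = 9.3e-08 for Hoxb13 and -1.22 ± 0.15 (SE), adjusted p = 6.6e-05 for Hoxb5. Hoxb7 had a single read, although it lies between Hoxb6 and Hoxb8. In PyMT-1099 LT, then, the series of paralogues 3, 4, 5, 6, 8, 9 and 13 was broken at Hoxb7.

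**Figure D2:**
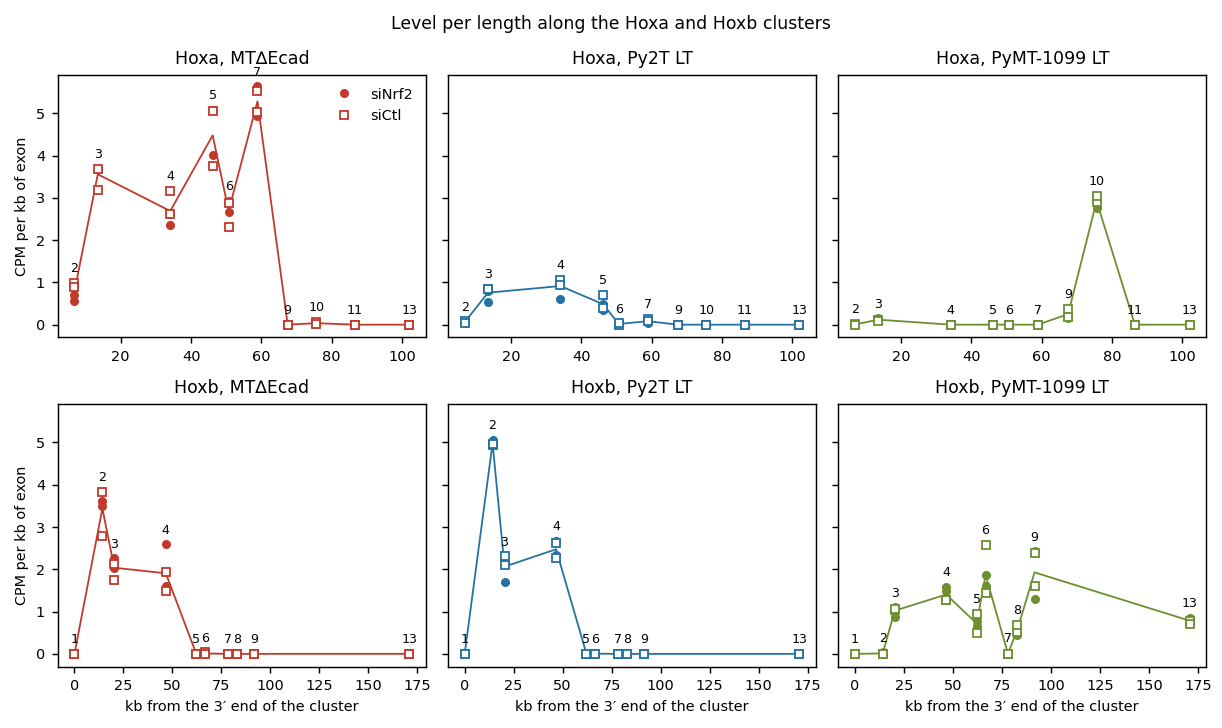
CPM per kilobase of exon (y axis) of Hoxa and Hoxb genes against its distance in kb from the 3′ end of its cluster (x axis), for the 3 lines; points are single libraries (filled siNrf2, open siCtl), the line joins the mean of 4 libraries and the labels are paralogue numbers. The MT∆Ecad profile reaches its top at Hoxa7 (5.28) and drops to 0 at Hoxa9, while PyMT-1099 LT has its highest point at Hoxa10 (2.92).

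Level per length was compared within a line as CPM per kb of exon. Exon lengths came from GENCODE M21. The annotation behind the counts is not given in the sources used here, so its exons may differ. In MT∆Ecad, Hoxa7 was highest at a mean of 5.28 (range 4.93 to 5.63 over 4 libraries), and its range did not overlap Hoxa3, at 3.56 (3.18 to 3.69). Hoxa5, in between at 4.48 (3.76 to 5.08), overlapped Hoxa7. In Py2T LT, Hoxb2 was highest at 4.98 (4.93 to 5.06) and did not overlap Hoxb4, at 2.47 (2.26 to 2.68). The reads of Hoxb2 cannot be told apart from those of Hoxb3os, as above. In PyMT-1099 LT, Hoxa10 was highest at 2.92 (2.77 to 3.06) and did not overlap Hoxb9, at 1.93 (1.30 to 2.43). Hoxb9 overlapped Hoxb6, and Hoxb6 overlapped Hoxb4. Summed over the Hoxa cluster, libraries ran from 38.6 to 44.9 CPM in MT∆Ecad, from 10.1 to 12.2 CPM in Py2T LT and from 12.7 to 14.6 CPM in PyMT-1099 LT. The Hoxb sums were closer to each other, at 14.5 to 20.5, 20.9 to 22.2 and 18.4 to 22.2 CPM in the same order of lines.

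The tests of the lines covered 16 of the 39 genes, the 14 detected ones with Hoxa2 and Hoxb5. Of MT∆Ecad minus PyMT-1099 LT in siCtl libraries, 14 were called, 8 higher and 6 lower, against a background of 27% of the 12502 tested genes called higher and 30.6% called lower. In MT∆Ecad minus Py2T LT, 8 were called, 6 higher (Hoxa2 to Hoxa7) and 2 lower (Hoxb2 among them), against 25.9% and 28.6%. In Py2T LT minus PyMT-1099 LT, 14 were called, 8 higher and 6 lower, against 28.1% and 27.5%. Hoxa10, Hoxb5, Hoxb6, Hoxb8, Hoxb9 and Hoxb13 passed the filter through PyMT-1099 LT alone, and Hoxa2, Hoxa5, Hoxa6 and Hoxa7 through MT∆Ecad alone. Genes that passed in this way had to differ, so the counts describe which genes moved and are no support on their own. The same holds for the adjusted p-values given above for these genes. Hoxa3, Hoxa4 and Hoxb2 passed through MT∆Ecad and Py2T LT, with at most 0.393 CPM in PyMT-1099 LT. Their calls and p-values against PyMT-1099 LT are likewise no support on their own. The contrasts share the siCtl libraries of a line, so they are not independent of each other.

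The same differences were read in the siNrf2 libraries. These are separate libraries, but the filter and the variance estimate came from the same model and used them too. Genes that passed the filter only through the lines where they were high were thus selected partly on these libraries. For those genes a repeated call against the other lines is no support on its own. MT∆Ecad minus PyMT-1099 LT gave the same 14 calls and MT∆Ecad minus Py2T LT the same 8. Py2T LT minus PyMT-1099 LT gave 13 of its 14, without Hoxa7 (log2 difference 0.20, adjusted p = 0.134, against 0.33 in siCtl libraries).

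**Figure D3:**
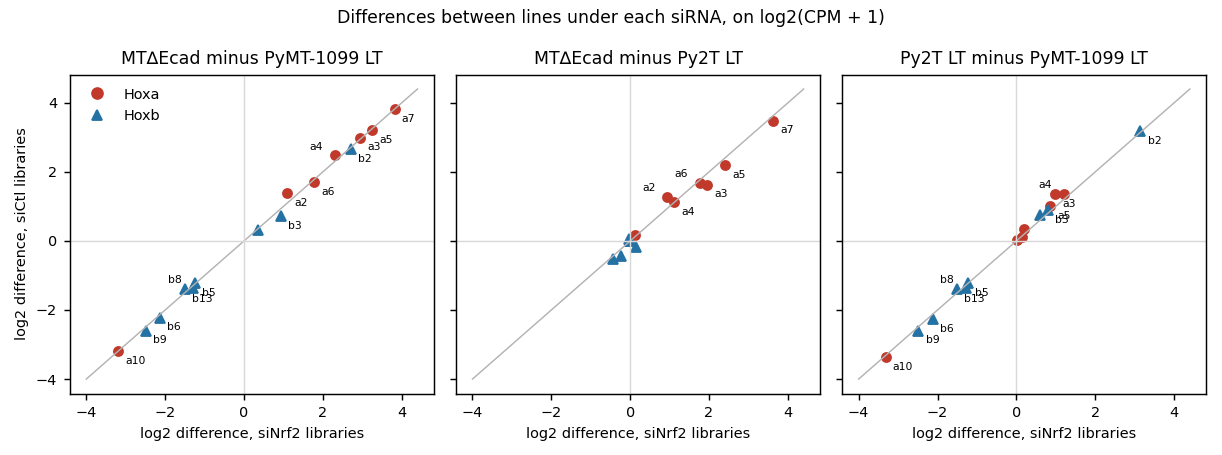
Log2 difference between lines on log2(CPM + 1) in siNrf2 libraries (x axis) and in siCtl libraries (y axis) for tested Hox genes, one panel per pair of lines; the grey diagonal marks equal differences. The points lie along the diagonal, with Hoxa7 at the top right (3.82 in siNrf2 and 3.82 in siCtl libraries for MT∆Ecad minus PyMT-1099 LT) and Hoxa10 at the bottom left.

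Within a line, 1 Hox gene passed the test of the siRNA against Nrf2, Hoxa2 in MT∆Ecad. In PyMT-1099 LT 0 of 16 tested Hox genes were called, against 0.52% of tested genes, and in Py2T LT 0 of 16, against 0.152%. No Hox gene reached an unadjusted p under 0.05 in these lines (0 in each), and edgeR and DESeq2 also called 0. In MT∆Ecad, 1 of 16 was called, against 17.3% of tested genes. For the mean of the 3 lines 0 were called (1 without MT∆Ecad siCtl replicate 2), against 12.3%, with 1 at an unadjusted p under 0.05. For the difference of the effect between lines 0 were called, against 2.18%, with 1 at an unadjusted p under 0.05, which was Hoxa2 in both. With the replicate number as a block within each line, the counts of Hox genes stayed at 1 in MT∆Ecad, 0 in Py2T LT and 0 in PyMT-1099 LT, while those over all tested genes were 5324, 127 and 1125, against 2164, 19 and 65 without it.

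For Hoxa2 in MT∆Ecad, as above, both siNrf2 libraries (1.26 and 0.988 CPM) were below both siCtl libraries (1.75 and 1.59 CPM), and the difference was -0.33 ± 0.086 (SE), adjusted p = 0.0292. The call ended with a pseudocount of 0.1 (adjusted p = 0.189), with edgeR (0.299 to 0.305) and with DESeq2 (0.671). It also ended without siNrf2 replicate 2 (0.208), siCtl replicate 1 (0.177) or siCtl replicate 2 (0.0612) of MT∆Ecad. With the replicate number as a block it held (0.00776). The difference of its effect between lines was not called (adjusted p = 0.284, and 0.0715 with the block). Of the single pairs of lines, the Hoxa2 effect in MT∆Ecad minus that in Py2T LT was -0.35, with an adjusted p of 0.161 by limma and of 0.0420 with the block. 15.0% of its exonic bases overlap the gene Gm28308 on the same strand.

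Other Hox genes had siNrf2 and siCtl libraries that did not overlap but did not pass the test. With 2 libraries per group such a split is common without any effect, and its share over all genes was not counted. In PyMT-1099 LT these included Hoxa3, Hoxb4 and Hoxb13, all with siNrf2 above, and in MT∆Ecad Hoxa4, with siNrf2 below. The Hoxa3 values differed in sign, with siNrf2 libraries below siCtl in Py2T LT (2.07 and 1.40 against 2.19 and 2.19 CPM) and above in PyMT-1099 LT. In PyMT-1099 LT they rest on few reads, 10 and 14 in siNrf2 and 8 and 7 in siCtl libraries. The test of the Hoxa3 difference between lines gave an adjusted p of 0.518 by limma.

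**Figure D4:**
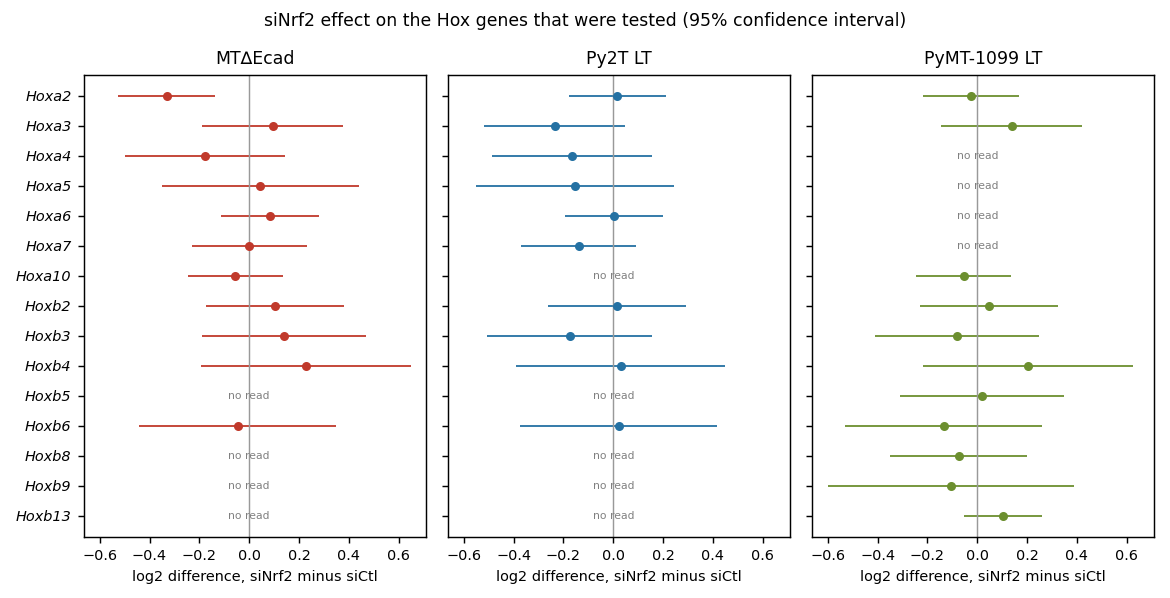
Log2 difference of siNrf2 minus siCtl (x axis) with its 95% confidence interval for tested Hox genes (rows) in each line; genes without a read in a line are marked. The interval of Hoxa2 in MT∆Ecad lies below 0 and those of the other genes shown cross 0.

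Of 9 partner genes, 6 were detected in every line. Pbx and Meis proteins are homeodomain partners that bind DNA together with Hox proteins. Of the 9, 8 were tested, and in siCtl libraries 2 were higher and 3 lower in MT∆Ecad than in PyMT-1099 LT, where 27% of all tested genes were called higher and 30.6% lower. In MT∆Ecad minus Py2T LT 5 were higher and 0 lower (25.9% and 28.6% of all tested genes), and in Py2T LT minus PyMT-1099 LT 0 were higher and 5 lower (28.1% and 27.5%). The median log2 difference of the 8 was -0.11, 0.47 and -0.49 in these 3 comparisons, against -0.046, -0.00087 and -0.019 over all tested genes. Among the partners, the largest called differences were Pbx4 (-1.32), Meis3 (0.79), Meis2 (-0.61) and Pbx2 (-0.59) for MT∆Ecad minus PyMT-1099 LT, as log2 differences. They were Meis3 (3.07), Meis1 (0.78), Pbx3 (0.60) and Pbx4 (0.48) for MT∆Ecad minus Py2T LT. In Py2T LT against PyMT-1099 LT they were Meis3 (-2.28), Pbx4 (-1.80), Meis2 (-1.07) and Pbx3 (-0.49). Meis3 ran from 8.75 to 11.5 CPM in MT∆Ecad, from 0.0837 to 0.270 CPM in Py2T LT and from 4.43 to 5.64 CPM in PyMT-1099 LT, and Py2T LT overlapped neither. Its difference was 3.07 ± 0.12 (SE), adjusted p = 2.2e-08 for MT∆Ecad minus Py2T LT. Under siNrf2, 1 of the 8 was called higher in MT∆Ecad, where 17.3% of all tested genes were called in either direction, and 0 in the other lines (0.152% in Py2T LT and 0.52% in PyMT-1099 LT).

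Cdx2, a homeodomain factor that activates posterior Hox genes in the embryo, was read in PyMT-1099 LT alone. It had no read in MT∆Ecad or Py2T LT and 22.9 and 18.8 CPM in siNrf2 libraries and 21.7 and 19.2 CPM in siCtl libraries of PyMT-1099 LT. A part of Cdx2 in the Hox pattern was not tested. Its difference was -4.42 ± 0.10 (SE), adjusted p = 4.7e-10 for MT∆Ecad minus PyMT-1099 LT and -4.42 ± 0.10 (SE), adjusted p = 5.6e-10 for Py2T LT minus PyMT-1099 LT. Cdx2 passed the filter on low values through PyMT-1099 LT alone, so these p-values are no support on their own. Of the list of 12 Cdx and other axial regulators 7 were tested. Of these, 1 was higher and 1 lower in MT∆Ecad than in PyMT-1099 LT (27% and 30.6% of all tested genes). In MT∆Ecad 1 was higher and 2 lower than in Py2T LT (25.9% and 28.6%), and in Py2T LT 3 were higher and 1 lower than in PyMT-1099 LT (28.1% and 27.5%). Lin28b, an RNA-binding protein of embryonic cells, ran from 4.86 to 11.4 CPM in Py2T LT and had 1 read in the 8 other libraries. Under siNrf2 in MT∆Ecad 3 of the 7 were lower and 0 higher, against 17.3% of all tested genes called in either direction. Of the axial regulators called, the largest differences were Cdx2 (-4.42) and Gdf11 (1.34) for MT∆Ecad minus PyMT-1099 LT, as log2 differences. They were Hmga2 (-2.90), Lin28b (-2.86) and Egr2 (1.69) for MT∆Ecad minus Py2T LT. In Py2T LT against PyMT-1099 LT they were Cdx2 (-4.42), Lin28b (2.83), Hmga2 (2.13) and Gdf11 (1.19). Under siNrf2 the called genes in MT∆Ecad with the largest log2 differences were Hmga2 (-1.33), Gdf11 (-0.43) and Gmnn (-0.37). The mean siNrf2 effect of the 3 lines was called for Gmnn (-0.25).

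The retinoic acid pathway activates 3′ Hox genes in the embryo, and the genes of its list of 20 (14 tested) differed between lines in both directions. In MT∆Ecad 6 were higher and 6 lower than in PyMT-1099 LT (27% and 30.6% of all tested genes), and 5 higher and 6 lower than in Py2T LT (25.9% and 28.6%). In Py2T LT 3 were higher and 6 lower than in PyMT-1099 LT (28.1% and 27.5%). Their median log2 difference was -0.18, -0.052 and -0.21 in these comparisons. Under siNrf2 in MT∆Ecad 3 of the 14 were higher and 0 lower, near the 17.3% of all tested genes called in either direction. In the retinoic acid list, those called with large differences included Rdh10 (-4.74), Crabp2 (3.68) and Rarb (2.28) for MT∆Ecad minus PyMT-1099 LT, as log2 differences. They included Rdh10 (-4.29), Rarb (2.72) and Dhrs3 (1.73) for MT∆Ecad minus Py2T LT. In Py2T LT against PyMT-1099 LT they were Crabp2 (5.05), Cyp26b1 (-3.45), Aldh1a3 (3.10) and Rarg (1.26). Under siNrf2 the called genes in MT∆Ecad with the largest log2 differences were Dhrs3 (1.55), Crabp2 (0.71) and Rara (0.49). Rarb, a retinoic acid receptor, had 8.07 and 9.70 CPM in siNrf2 libraries and 6.38 and 8.82 CPM in siCtl libraries of MT∆Ecad, at most 0.351 CPM in Py2T LT and 0.546 to 0.828 CPM in PyMT-1099 LT. Rdh10, which makes retinal from retinol, ran from 10.1 to 13.5 CPM in MT∆Ecad, from 200 to 235 CPM in Py2T LT and from 264 to 377 CPM in PyMT-1099 LT. Cyp26b1, which breaks retinoic acid down, ran from 1.61 to 3.84 CPM in MT∆Ecad, from 0.513 to 0.753 CPM in Py2T LT and from 16.5 to 20.4 CPM in PyMT-1099 LT.

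**Figure D5:**
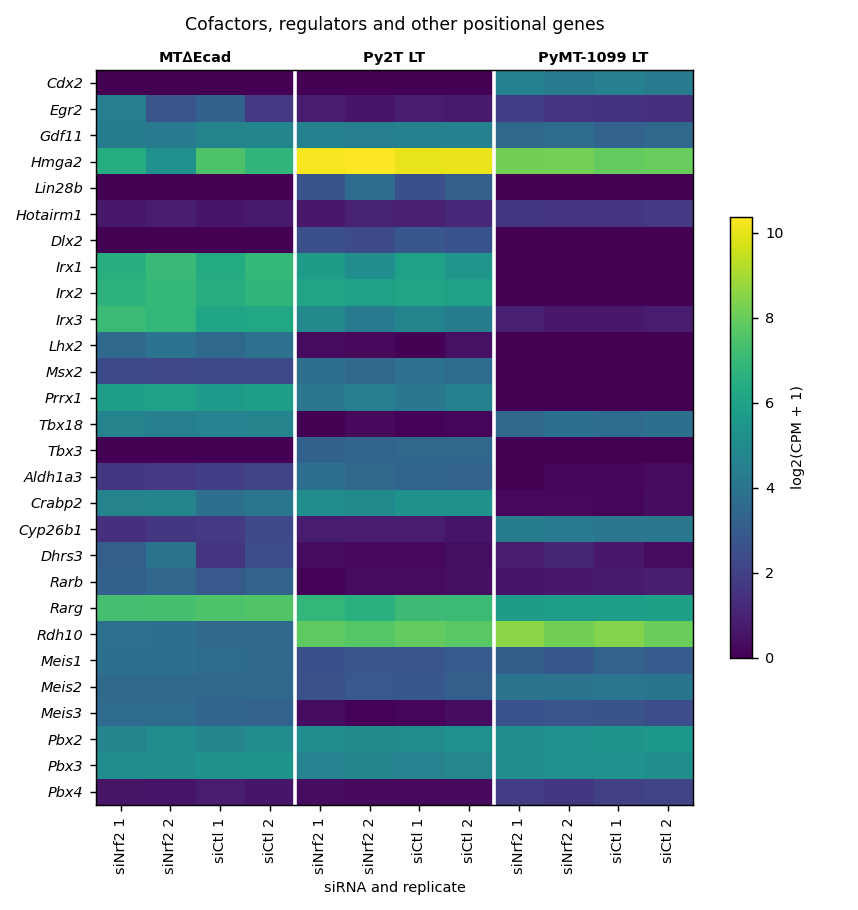
Level, as log2(CPM + 1), of the named cofactors, regulators and other positional genes (rows) in the 12 libraries (columns, grouped by line). Cdx2 is bright in the 4 PyMT-1099 LT libraries alone, where Irx1, Irx2 and Prrx1 have no read.

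The chromatin regulators that keep Hox genes silent or active made up a list of 49, and 49 were tested. In siCtl libraries 8 were higher and 13 lower in MT∆Ecad than in PyMT-1099 LT (27% and 30.6% of all tested genes), and 10 higher and 13 lower than in Py2T LT (25.9% and 28.6%). In Py2T LT 11 were higher and 10 lower than in PyMT-1099 LT (28.1% and 27.5%). The largest difference was that of Phf19, a Polycomb cofactor, which ran from 21.7 to 28.7 CPM in Py2T LT and had no read in the other lines. Under siNrf2, 0 were called in Py2T LT and 0 in PyMT-1099 LT, while in MT∆Ecad 1 was higher and 11 were lower, against 17.3% of all tested genes called in either direction. Their median was -0.18 over the 49 and 0 over all tested genes. Ezh2, the methyltransferase of Polycomb complex 2, had 68.0 and 63.7 CPM in siNrf2 libraries and 104 and 98.0 CPM in siCtl libraries of MT∆Ecad, and the siNrf2 libraries were below both siCtl libraries. The difference was -0.61 ± 0.12 (SE), adjusted p = 0.00910. Cbx2, a reader of the mark that Ezh2 sets, had 17.0 and 18.9 CPM in siNrf2 libraries and 29.2 and 31.4 CPM in siCtl libraries of MT∆Ecad (-0.72 ± 0.089 (SE), adjusted p = 0.00146). For the mean of the 3 lines 1 was higher and 6 were lower, against 12.3% of all tested genes. The chromatin regulators with large called differences included Scmh1 (2.00), Cbx7 (1.76) and Bap1 (1.19) for MT∆Ecad minus PyMT-1099 LT, as log2 differences. They were Phf19 (-4.81), Pcgf5 (1.51), Scmh1 (1.22) and Ring1 (1.19) for MT∆Ecad minus Py2T LT. In Py2T LT against PyMT-1099 LT they were Phf19 (4.81), Dot1l (1.36), Pcgf5 (-1.24) and Phc3 (-0.99). Under siNrf2 the called genes in MT∆Ecad with the largest log2 differences were Cbx2 (-0.72), Ezh2 (-0.61), Ezh1 (0.55) and Wdr5 (-0.53). The mean siNrf2 effect of the 3 lines was called for Cbx2 (-0.40), Ezh2 (-0.33), Ezh1 (0.26) and Pcgf3 (-0.26), the largest.

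Of 19 noncoding transcripts of the Hox clusters on the list, Hotairm1 of the Hoxa cluster was the 1 detected in a line. It ran from 0.551 to 0.784 CPM in MT∆Ecad and from 0.614 to 1.24 CPM in Py2T LT, and had 2.19 and 1.94 CPM in siNrf2 libraries and 2.05 and 2.34 CPM in siCtl libraries of PyMT-1099 LT. All PyMT-1099 LT libraries were above the others. The difference was -0.97 ± 0.13 (SE), adjusted p = 1.7e-04 for MT∆Ecad minus PyMT-1099 LT and -0.62 ± 0.13 (SE), adjusted p = 0.00300 for Py2T LT minus PyMT-1099 LT. Of the 15 genes next to the clusters 8 were tested: Snx10, Skap2, Hibadh, Lnpk, Mtx2, Smug1, Calcoco1 and Cbx5. Neighbours called with the largest differences were Lnpk (-0.89), Smug1 (-0.75) and Skap2 (-0.70) for MT∆Ecad minus PyMT-1099 LT, as log2 differences. They were Snx10 (-0.74), Hibadh (-0.57), Smug1 (-0.57) and Skap2 (-0.53) for MT∆Ecad minus Py2T LT. In Py2T LT against PyMT-1099 LT they were Lnpk (-0.81), Snx10 (0.76), Hibadh (0.67) and Mtx2 (-0.62). Skap2, beside the Hoxa cluster, ran from 23.6 to 30.6 CPM in MT∆Ecad, from 34.7 to 37.0 CPM in Py2T LT and from 39.3 to 45.1 CPM in PyMT-1099 LT. In siNrf2 libraries of MT∆Ecad, Skap2 rose (0.33 ± 0.077 (SE), adjusted p = 0.0202) and so did Calcoco1 (0.95 ± 0.19 (SE), adjusted p = 0.00997).

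Markers of other cell types were read in the same libraries. The leukocyte gene Ptprc was at most 0.0571 CPM in all 12 libraries, and the fibroblast genes Thy1 and Dcn at most 0.0581 CPM. The fibroblast genes Pdgfra and Pdgfrb went the other way. In siCtl libraries both were called higher in MT∆Ecad than in PyMT-1099 LT (log2 differences 4.225 and 2.249) and than in Py2T LT (0.5565 and 3.784). Both also rose under siNrf2 in MT∆Ecad (0.6036 and 0.5437). The leukocyte list (6 genes) summed to 1.11 to 2.12 CPM in MT∆Ecad, 14.1 to 33.1 CPM in Py2T LT and 23.7 to 42.8 CPM in PyMT-1099 LT. Of it, Csf1r gave 1.07 to 2.12 CPM in MT∆Ecad, 13.9 to 33.0 CPM in Py2T LT and 23.6 to 42.7 CPM in PyMT-1099 LT. The endothelial list (4 genes) summed to 0.0872 to 0.222 CPM in MT∆Ecad, 4.45 to 6.30 CPM in Py2T LT and 88.0 to 124 CPM in PyMT-1099 LT, where Cdh5 alone gave 88.0 to 124 CPM. The fibroblast list (8 genes) summed to 2893 to 3281 CPM in siNrf2 and 1625 to 1815 CPM in siCtl libraries of MT∆Ecad, where Col3a1 alone gave 895 to 2041 CPM, to 80.6 to 109 CPM in Py2T LT and to 162 to 179 CPM in PyMT-1099 LT. The adipocyte list (4 genes) summed to at most 1.67 CPM in any library. The part of these genes in the Hox differences was not tested.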

How the data were processed

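Ribosome-depleted total RNA was sequenced as single reads of 81 bases, per the labels' protocols. The authors deposited CPM (reads per 1000000) per Entrez gene, and the submitters' processing notes name STAR and mm10; the counter and its use of strand are not given in the sources used here. CPM values gave whole reads within 0.01 for 100% of values, which were recovered for the depth and for count-based alternatives. Symbols came from RefSeq for 24374 rows and from GENCODE M21 for 7, and 73 rows had none.

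Differences were tested with limma 3.58.1 in R 4.3.3 on log2(CPM + 1), which understates changes of low genes. One model of 6 groups covered 12502 genes with at least 1 CPM in at least 2 libraries, with Benjamini-Hochberg adjustment and a threshold of 0.05. Genes of any list that passed this filter only through the lines where they were high had to differ between lines. Their calls and p-values against a line below the filter are no support on their own. Alternatives were a pseudocount of 0.1, other filters, each replicate left out, a replicate block, edgeR 4.0.16 and DESeq2 1.42.0 on recovered reads. In MT∆Ecad edgeR called 1600 genes for siNrf2 and DESeq2 1864, against 2164 with limma. Deviations of same-numbered libraries correlated within lines at 0.625 to 0.846, so the numbers pair libraries within a line. The siNrf2 counts of the other gene lists, and the shares of all tested genes beside them, come from the model without the block. They do not use this pairing. The scripts were tested on simulated data. P-values measure the spread between these libraries, which may be technical. The Hox genes, other gene lists and motifs were chosen with earlier results of these data known. Results of some genes on the lists, 1 Hox gene included, are not reported here, though counts include them. Of each other list the 4 called genes with the largest log2 difference in a comparison were named, and of the noncoding and neighbouring genes those detected in a line; cell type markers were named for their role.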

Additional observations from a re-analysis of the deposited data

How the results depend on the processing

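Over 37 called differences of Hox genes, 796 of 812 values under the alternatives kept their direction and their side of the threshold, 16 lost the call and 0 reversed. The 3 differences concerned were Hoxa2 under siNrf2 in MT∆Ecad, Hoxa7 in Py2T LT minus PyMT-1099 LT (adjusted p from 0.0702 to 0.135 where lost) and Hoxb2 in MT∆Ecad minus Py2T LT (0.0668 to 0.0747). The count of Hox genes called for siNrf2 in MT∆Ecad was 1, and 0 with a pseudocount of 0.1, with edgeR under TMM, RLE or filterByExpr and with DESeq2, and it ran from 0 to 1 when a replicate was left out; the cause was not tested. For the mean of the 3 lines it was 0, and 0 to 1 with a replicate left out. The 1 call for the mean came without MT∆Ecad siCtl replicate 2. Leaving out a replicate gave 14 to 15 calls for MT∆Ecad minus PyMT-1099 LT, 8 to 9 for MT∆Ecad minus Py2T LT and 13 to 14 for Py2T LT minus PyMT-1099 LT. With a replicate block the counts were 0 in PyMT-1099 LT, 0 in Py2T LT, 1 in MT∆Ecad, 0 for the mean and 0 for the difference between lines. It added the Hoxa2 effect in MT∆Ecad minus that in Py2T LT (adjusted p = 0.0420 with the block and 0.161 without it) and changed no other siNrf2 call of a Hox gene. Between lines, same-numbered libraries of PyMT-1099 LT and Py2T LT deviated together (correlation 0.792 in siNrf2 and 0.592 in siCtl libraries). Those of MT∆Ecad correlated weakly and negatively with both (-0.291 to -0.114). A block across all lines gave 14 calls for MT∆Ecad minus PyMT-1099 LT, 9 for MT∆Ecad minus Py2T LT and 14 for Py2T LT minus PyMT-1099 LT. Genes near 3 reads (0.0809 to 0.111 CPM) were left out by the filter. With no filter Hoxc6, with at most 0.111 CPM in a library, was called higher in MT∆Ecad than in Py2T LT (0.0179) and PyMT-1099 LT (0.0369), a difference that rests on few reads.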

Other observations

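Other homeobox and T-box genes with a role in position differed between lines as well. Of a list of 39, 19 were tested, and in siCtl libraries 14 were higher and 2 lower in MT∆Ecad than in PyMT-1099 LT, against 27% and 30.6% of all tested genes. Their median log2 difference was 2.12, and that of all tested genes -0.046. In Py2T LT 12 were higher and 3 lower than in PyMT-1099 LT (28.1% and 27.5%), and in MT∆Ecad 12 were higher and 4 lower than in Py2T LT (25.9% and 28.6%). Of the 39, 16 were detected in MT∆Ecad, 14 in Py2T LT and 6 in PyMT-1099 LT. Genes that passed the filter only through the lines where they were high had to differ. The counts and the median are therefore no support on their own. Irx1, a homeodomain factor of heart, lung and kidney, had 91.7 and 129 CPM in siNrf2 libraries and 79.9 and 121 CPM in siCtl libraries of MT∆Ecad. It had 52.5 and 33.1 CPM in siNrf2 libraries and 60.2 and 43.0 CPM in siCtl libraries of Py2T LT and no read in PyMT-1099 LT. Prrx1, a factor of limb and craniofacial mesenchyme, had 56.0 and 60.4 CPM in siNrf2 libraries and 46.7 and 54.5 CPM in siCtl libraries of MT∆Ecad. It had 16.6 and 20.7 CPM in siNrf2 libraries and 17.0 and 22.6 CPM in siCtl libraries of Py2T LT and no read in PyMT-1099 LT. MT∆Ecad libraries were above Py2T LT libraries for both genes. Under siNrf2, 3 of the 19 were higher in MT∆Ecad, near the 17.3% of all tested genes called in either direction, and 0 were called in Py2T LT or PyMT-1099 LT (0.152% and 0.52%). The highest of the 3 was Prrx2, at 0.92 ± 0.17 (SE), adjusted p = 0.00854 by limma. The largest called differences of the list were Irx1 (6.63), Irx2 (6.63), Prrx1 (5.68) and Irx3 (5.41) for MT∆Ecad minus PyMT-1099 LT, as log2 differences. They were Tbx18 (4.50), Tbx3 (-3.49), Lhx2 (3.44) and Dlx2 (-2.72) for MT∆Ecad minus Py2T LT. In Py2T LT against PyMT-1099 LT they were Irx2 (6.01), Irx1 (5.70), Prrx1 (4.37) and Msx2 (3.78). Under siNrf2 the called log2 differences in MT∆Ecad included Prrx2 (0.92) and Irx3 (0.80).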
